A study of Mus musculus with 12 samples.

Results

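The 9 interferon-stimulated genes, Ifit1, Ifit2, Ifit3, Isg15, Irf7, Oasl2, Usp18, Rsad2 and Gbp2, were followed in the livers of exercised and sedentary mice. They were picked by gene symbol, and are 9 of the 16821 genes in the data. All 9 had a row in each of the 12 mice. Male C57BL/6J mice were bought at 8 weeks of age and adapted for 1 week. For 6 weeks the 6 mice of the Exe group had moderate treadmill running on 5 days per week, 60 min each day, and the 6 Con mice stayed sedentary in the same room. Livers were perfused with saline within 24 h of the last run. Their RNA was sequenced with 1 library per mouse, and the libraries are numbered 1 to 6 within each group (Con 1, Exe 1 and so on). The labels name no genetic change or drug in either group.

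Interferons are cytokines of the antiviral defence. Type I interferons bind a receptor whose kinases activate transcription factors, and these bind the interferon-stimulated response element (ISRE) in the promoters of their targets. Interferon gamma has a receptor of its own, and its signal ends at the gamma-activated sequence (GAS). Even without infection the liver holds a low level of these transcripts, in hepatocytes and in its macrophages, the Kupffer cells. The genes followed here cover several layers of the response. Ifit1, Ifit2 and Ifit3 are effectors against viral RNA, Rsad2 (viperin) is an antiviral radical SAM enzyme and Oasl2 an oligoadenylate synthetase relative. Isg15 is a ubiquitin-like modifier, and Usp18 is the protease that removes this modifier and dampens receptor signalling. Irf7 is a transcription factor that amplifies interferon production, and Gbp2 is a guanylate-binding GTPase against intracellular microbes.

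Promoters show which members carry the textbook binding letters close to their start. The 250 bases before the start site were read from the RefSeq promoters of build GRCm38.p6, in which 8 of the 9 members were matched (not Usp18). An ISRE core, spelled GAAA, any 2 bases and GAAA again (or TTTC, any 2 bases and TTTC on the other strand), stood in 5 of the 8, namely Ifit1, Ifit3, Isg15, Rsad2 and Gbp2. Of all 27025 genes with such windows 3.46% held one (2.98% of all 32851 windows). So did 18 of the 52 other type I interferon-stimulated genes found in the table. The letters of the GAS, TTCNNNGAA, which read the same on both strands, stood in 1 of the 8 members (Ifit2). They stood in 5 of the 52 other type I genes, in 8.13% of all genes and in 7.02% of all windows. A match is only a run of letters, and a window without one says nothing of the factor. The 5 windows with an ISRE core are shown 5′ to 3′ in the direction of the gene, with the ISRE core in capitals. They lie at chr19:34640639-34640888 (plus strand) for Ifit1, chr19:34583279-34583528 (plus) for Ifit3, chr4:156200819-156201068 (minus) for Isg15, chr12:26456453-26456702 (minus) for Rsad2 and chr3:142620413-142620662 (plus) for Gbp2.
Ifit1: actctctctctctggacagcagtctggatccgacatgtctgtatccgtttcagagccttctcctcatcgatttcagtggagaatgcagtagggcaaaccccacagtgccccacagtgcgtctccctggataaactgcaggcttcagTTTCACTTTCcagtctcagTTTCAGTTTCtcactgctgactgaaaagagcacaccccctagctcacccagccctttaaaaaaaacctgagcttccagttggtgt
Ifit3: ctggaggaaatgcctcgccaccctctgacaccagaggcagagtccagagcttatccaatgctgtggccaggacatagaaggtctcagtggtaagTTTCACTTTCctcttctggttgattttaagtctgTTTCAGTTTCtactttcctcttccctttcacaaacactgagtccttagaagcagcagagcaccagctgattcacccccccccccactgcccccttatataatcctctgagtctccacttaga
Isg15: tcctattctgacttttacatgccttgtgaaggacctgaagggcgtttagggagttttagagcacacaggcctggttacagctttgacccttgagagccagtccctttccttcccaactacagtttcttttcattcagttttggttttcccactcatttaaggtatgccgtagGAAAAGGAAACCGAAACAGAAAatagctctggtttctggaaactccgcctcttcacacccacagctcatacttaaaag
Rsad2: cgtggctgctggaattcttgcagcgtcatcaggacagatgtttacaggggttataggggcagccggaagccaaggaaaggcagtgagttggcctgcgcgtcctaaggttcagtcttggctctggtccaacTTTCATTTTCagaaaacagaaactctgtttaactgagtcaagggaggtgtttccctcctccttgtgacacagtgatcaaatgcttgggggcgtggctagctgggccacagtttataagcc
Gbp2: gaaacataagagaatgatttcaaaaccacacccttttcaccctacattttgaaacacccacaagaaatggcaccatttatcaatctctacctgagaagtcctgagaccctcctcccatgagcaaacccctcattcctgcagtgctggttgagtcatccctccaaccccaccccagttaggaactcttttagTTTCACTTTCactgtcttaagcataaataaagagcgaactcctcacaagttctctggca
In Ifit1 the cores began 104 and 85 bases before the start, and in Ifit3 156 and 122 bases before it. Isg15 had 3 overlapping cores, which began 78, 72 and 66 bases before the start. Rsad2 had 1 at 120 bases and Gbp2 1 at 59 bases. The 3 Ifit genes are all on chromosome 19.

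Levels are given in FPKM (fragments divided by transcript length and by the mapped fragments of the library), so that genes of unequal length can be compared. Summed over all genes, a mouse had 735200 to 820107 FPKM. The depth in reads is unknown, but the relative depth of the libraries, estimated from 125 genes with few reads, was between 0.985 and 1.01. Across genes, any pair of mice had a Spearman's rho of 0.981 to 0.987. All 8 hepatocyte markers were above 1 FPKM on average, and their sum was 59294 to 72706 in Con and 63712 to 80355 in Exe. In bulk liver, fewer cells of a type and less RNA per cell cannot be told apart. Nothing in the labels ties a mouse to a cage, litter or running batch.

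All 9 members were detected in every mouse. Irf7 had the highest level, with a mean of 30.5 FPKM over the 12 mice, followed by Isg15 at 19.1, Usp18 at 7.80, Ifit3 at 7.09, Oasl2 at 2.73, Ifit1 at 2.14, Gbp2 at 1.89, Rsad2 at 1.51 and Ifit2 at 1.44 FPKM. Irf7 was above Isg15 in 12 of 12 mice, although their ranges over mice overlapped. The steps from Isg15 down to Usp18 (2.45-fold) and from Ifit3 down to Oasl2 (2.59-fold) were the only ones between neighbours whose ranges did not overlap. Usp18 and Ifit3 could not be ordered, since Usp18 was the higher in 7 of 12 mice. The same held lower down, with Ifit1 above Gbp2 in 8 mice, Gbp2 above Rsad2 in 7 and Rsad2 above Ifit2 in 8.

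**Figure D1:**
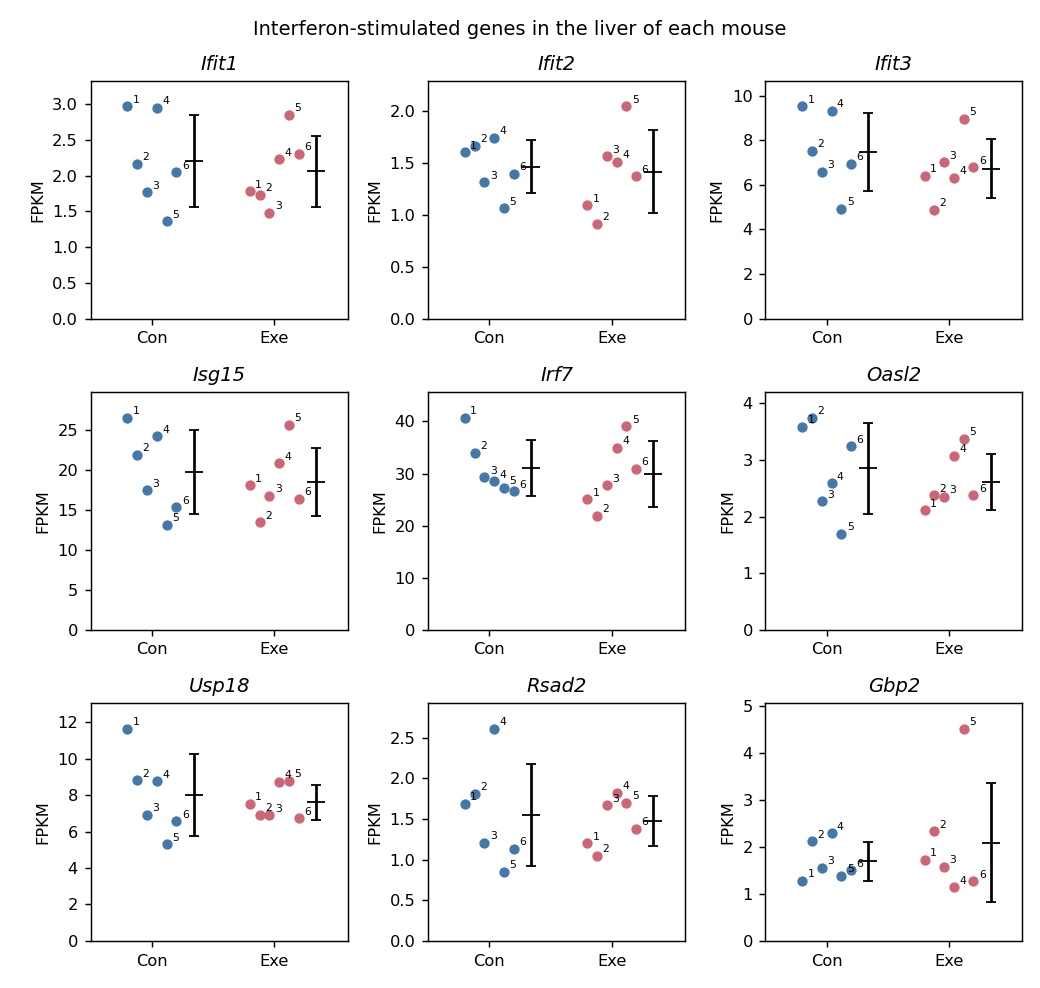
FPKM (vertical axis, from 0) of the 9 interferon-stimulated genes in each mouse, with Con mice in blue, Exe mice in red and the mouse number beside each point. Bars give the group mean ± SD of 6 mice. In every panel the Con and Exe points overlap, and the Gbp2 panel has a single high point, Exe 5 at 4.51 FPKM.

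To find out whether chronic exercise shifted these genes, Exe was compared with Con. No difference was found for any member: 0 of 9 passed an adjusted p of 0.05 in limma, and neither did any other gene (0% of 10241 tested). The study, with its own count-based test, did call genes between these groups, so the 0% holds only for limma on FPKM. All 9 had been tested, since each reached 1 FPKM in at least 6 mice (Ifit2 and Rsad2 in 11, the others in 12). At an unadjusted p under 0.05, limma gave 0 of 9 members, against 6.21% of all genes tested (636 genes). The Con and Exe values overlapped for all 9, and across all genes 0.254% did not overlap. Means were lower in Exe for 8 members (Rsad2 turned with the sums rescaled) and higher for Gbp2, and leaving out single mice turned the sign for all members but Ifit3 and Oasl2. The median log2 fold change of the members was -0.06, against 0.016 over all genes tested. Fold changes are on the log2(FPKM + 1) scale, which understates the change of low genes.

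Among the Ifit effectors, Ifit1 was 1.36, 2.11 and 2.97 FPKM at its lowest, median and highest Con mouse and 1.48, 2.005 and 2.85 FPKM in Exe. Its highest mice, Con 1, Con 4 and Exe 5, came from both groups. Ifit1 averaged 2.21 ± 0.643 FPKM in Con and 2.06 ± 0.498 FPKM in Exe (SD, n = 6 each), a log2 fold change of -0.06 (SE 0.14, limma adjusted p = 0.969, exact permutation p = 0.699). Ifit2, which partners Ifit1 and Ifit3 in a complex, was 1.06, 1.495 and 1.74 FPKM in Con and 0.91, 1.44 and 2.04 FPKM in Exe. Exe held both its highest mouse (Exe 5) and its lowest (Exe 2), and the log2 fold change was -0.04 (SE 0.11, limma adjusted p = 0.975). Ifit3, the most abundant of the 3, was 4.92, 7.23 and 9.51 FPKM in Con and 4.89, 6.59 and 8.97 FPKM in Exe. The lowest mice of both groups, Con 5 and Exe 2, were almost level, as were the highest, Con 1 and Exe 5. Ifit3 averaged 7.46 ± 1.74 FPKM in Con and 6.73 ± 1.32 FPKM in Exe (SD, n = 6 each), and its log2 fold change of -0.12 was the most negative of the 9 (SE 0.14, limma adjusted p = 0.943, exact permutation p = 0.424).

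Close copies could share reads with these genes, and how the authors' counting split them is not given in the sources used here. Ifit3b, a near copy of Ifit3, averaged 1.71 ± 0.412 FPKM in Con and 1.71 ± 0.358 FPKM in Exe (SD, n = 6 each). Ifit1bl1 stayed between 0 and 0.37 FPKM and Ifit1bl2 between 0 and 0.06 FPKM. Oasl1, a relative of Oasl2, averaged 9.49 ± 1.93 FPKM in Con and 8.53 ± 1.72 FPKM in Exe. Its log2 fold change was -0.14 (SE 0.14). Ifit1bl1 and Ifit1bl2 were under the filter, and no copy that was tested passed the adjusted p in limma.

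The ISG15 system has the modifier and its protease. Isg15 was 13.1, 19.7 and 26.6 FPKM in the lowest, median and highest Con mouse, and 13.5, 17.4 and 25.7 FPKM in Exe. The groups thus covered nearly the same range. Isg15 averaged 19.8 ± 5.28 FPKM in Con and 18.5 ± 4.24 FPKM in Exe (SD, n = 6 each), with a log2 fold change of -0.07 (SE 0.17, limma adjusted p = 0.969). Usp18 was 5.30, 7.83 and 11.7 FPKM in Con and 6.74, 7.21 and 8.80 FPKM in Exe. All 6 Exe values of Usp18 lay inside the Con range, and the SD was 2.24 FPKM in Con against 0.944 FPKM in Exe. The difference between these spreads was not tested. The log2 fold change of Usp18 was -0.04 (SE 0.14, limma adjusted p = 0.984).

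Irf7, the transcription factor, was 26.6, 28.9 and 40.7 FPKM in Con and 21.9, 29.3 and 39.1 FPKM in Exe. Con 1 and Exe 5 were its highest mice and Exe 2 its lowest. It averaged 31.1 ± 5.41 FPKM in Con and 29.9 ± 6.38 FPKM in Exe (SD, n = 6 each), a log2 fold change of -0.06 (SE 0.14, limma adjusted p = 0.966, exact permutation p = 0.695). Irf7 was also the member that varied least in fold terms, its highest mouse being 1.86 times its lowest.

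For the enzyme Oasl2 the Con mice ran from 1.70 over a median of 2.92 to 3.75 FPKM and the Exe mice from 2.11 over 2.38 to 3.38 FPKM. The Exe values again lay within the Con range, and the log2 fold change was -0.08 (SE 0.14, limma adjusted p = 0.961). Rsad2 ran from 0.85 over 1.45 to 2.61 FPKM in Con and from 1.05 over 1.52 to 1.82 FPKM in Exe. Con 4 was highest and Con 5 lowest, with a log2 fold change between the groups of -0.02 (SE 0.14, limma adjusted p = 0.993).

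Gbp2, the member most closely tied to interferon gamma, had a Con range of 1.28 to 2.29 FPKM with a median of 1.52, and an Exe range of 1.14 to 4.51 FPKM with a median of 1.65. A single mouse, Exe 5, raised its Exe mean, and the other 5 Exe mice averaged 1.61 ± 0.466 FPKM (SD). Gbp2 averaged 1.69 ± 0.414 FPKM in Con and 2.09 ± 1.26 FPKM in Exe (SD, n = 6 each), and its log2 fold change was 0.13 (SE 0.20, limma adjusted p = 0.954, exact permutation p = 0.628). Without Exe 5 the log2 fold change was -0.05. The related Gbp2b averaged 1.86 ± 0.396 FPKM in Con and 1.72 ± 0.682 FPKM in Exe. Gbp3 had a log2 fold change of 0.02, and of -0.09 without Exe 5.

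The precision allows a bound on the size of any group difference. The 95% intervals of the 9 fold changes, on the FPKM + 1 scale, reached from 0.733-fold at their lowest (Isg15) to 1.47-fold at their highest (Gbp2), so that a log2 fold change of 1 in either direction lay outside all 9. For members near 1 FPKM the added 1 compresses this scale, so their intervals would be wider in plain FPKM. The intervals all include no change, which does not show that the groups are equal.

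**Figure D2:**
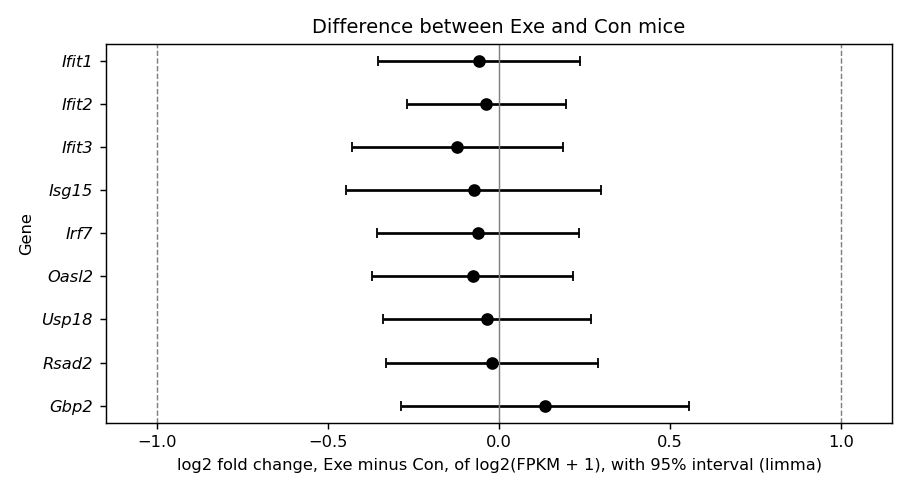
Log2 fold change of each member, Exe minus Con, on the log2(FPKM + 1) scale (horizontal axis), with the 95% interval from limma over 6 mice per group. Dashed lines mark a log2 fold change of 1 in either direction. All 9 intervals cross 0 and stay inside the dashed lines.

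The rest of the pathway was read from lists of ligands, receptors and signal transducers, nucleic acid sensors, further targets and acute-phase genes. Their counts of higher and lower genes stand beside 5892 higher and 4349 lower in Exe over all genes tested. Among 21 interferon ligands 2 had rows, and both were near 0: Ifng was between 0 and 0.12 FPKM and listed at 0 in 6 mice, and Ifnz was between 0 and 0.05 FPKM and listed at 0 in 8. The highest Ifng value was in Exe 5. Both were under the filter, and in limma without a filter Ifng had an adjusted p of 0.956 and Ifnz one of 1.

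Of the receptors and signal transducers 20 were tested, with 10 higher and 10 lower in Exe, a median log2 fold change of 0.0051 (below 0 with quantile normalization) and 0 past the adjusted p. Stat2 and Irf9, partners in the type I response, had log2 fold changes of 0.05 and -0.02 (limma adjusted p = 0.968 and 0.986), which turned to -0.02 for Stat2 without Con 3 and to 0.04 for Irf9 without Con 2. Socs3, a feedback inhibitor of cytokine receptors that also answers to interleukin 6, was the list's 1 gene at an unadjusted p under 0.05, and limma's adjusted p was 0.793. Socs3 averaged 6.30 ± 3.59 FPKM in Con and 3.65 ± 0.821 FPKM in Exe (SD, n = 6 each), a log2 fold change of -0.55 (SE 0.23). Con 1 stood at 13.3 FPKM, and without it the log2 fold change was -0.34. Ifngr2, a chain of the interferon gamma receptor, had the next lowest value at -0.17, and -0.11 without Exe 6. The transcription factors Irf8 and Irf2 had the highest values at 0.13 and 0.11, which were 0.04 for Irf8 without Exe 5 and 0.03 for Irf2 without Exe 2.

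Of the sensors and adaptors 15 were tested, with 8 higher and 7 lower in Exe, a median of 0.010 and 0 called. Ikbke, a kinase that activates interferon regulatory factors, averaged 8.92 ± 0.881 FPKM in Con and 10.7 ± 2.53 FPKM in Exe (SD, n = 6 each), a log2 fold change of 0.23 (SE 0.11, limma adjusted p = 0.816). Its highest mouse was again Exe 5 at 15.8 FPKM, and without that mouse the log2 fold change was 0.12. Sting1, the adaptor of the cytosolic DNA sensor, followed at 0.09, and Myd88 (adaptor of Toll-like receptors) and Ifi204 (a DNA-binding sensor) had the lowest values at -0.12 and -0.11. Leaving out each mouse in turn, Sting1 was 0.02 (without Exe 5) to 0.17 (without Con 2), Myd88 -0.16 to -0.06 (without Con 2) and Ifi204 -0.17 (without Exe 5) to -0.03 (without Con 2).

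Among the other type I interferon-stimulated genes 52 were tested, of which 18 were higher and 34 lower in Exe, with a median of -0.05 and 0 called, also at an unadjusted p under 0.05. The lowest were Ifitm1, a membrane protein that limits virus entry, at -0.31 and Ifi27l2a at -0.26. The highest were Pml, which organises nuclear bodies, at 0.15 and Ifitm3 at 0.11. Leaving out each mouse in turn, Ifitm1 was -0.49 (without Exe 5) to -0.17 (without Con 4), Ifi27l2a -0.37 to -0.13 (without Con 2) and Pml 0.09 (without Con 5) to 0.20. The median of the list was -0.08 without Exe 5 and -0.0080 without Con 1. Ifitm3, at 928 ± 106 FPKM in Con and 1000.4 ± 63.8 FPKM in Exe (SD, n = 6 each), was far above any member. Its adjusted p in limma was 0.900.

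The GTPases and chemokines of the interferon gamma response had 18 genes tested, 15 higher and 3 lower in Exe, with a median of 0.08 and 0 called. Tgtp1, an immunity-related GTPase that has a near copy, had the highest log2 fold change at 0.44 (SE 0.34). It stood at 17.7 FPKM in Exe 5 and between 2.02 and 2.98 FPKM in the other 11 mice. Igtp, another such GTPase, had 0.32 (SE 0.22), with 35.8 FPKM in Exe 5 and 11.3 to 16.8 FPKM elsewhere. Without Exe 5 the log2 fold change was 0.05 for Tgtp1 and 0.09 for Igtp, and the median of the list turned to -0.06. The lowest values of the list were those of Gbp8 (-0.14) and Gbp2b (-0.09), which without Exe 2 were -0.06 and -0.012 and without Exe 5 -0.21 and -0.20.

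Acute-phase genes, which the liver makes in inflammation, varied over a far wider range between mice than the members did. Their mean log2 values were lower in Exe for all 8, the median log2 fold change being -0.72, and 0 passed the adjusted p in limma. Single mice carried much of this: the median was -0.30 without Con 1 and -1.30 without Exe 5, and without Con 1 the log2 fold changes of Lcn2 and Hp turned to 0.53 and 0.10. Saa1 ranged from 149 to 9260 FPKM over the 12 mice, Saa2 from 51.7 to 11371 FPKM and Lcn2 from 5.93 to 719 FPKM. Con 1 and Exe 5 were the highest mice of all 3.

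**Figure D3:**
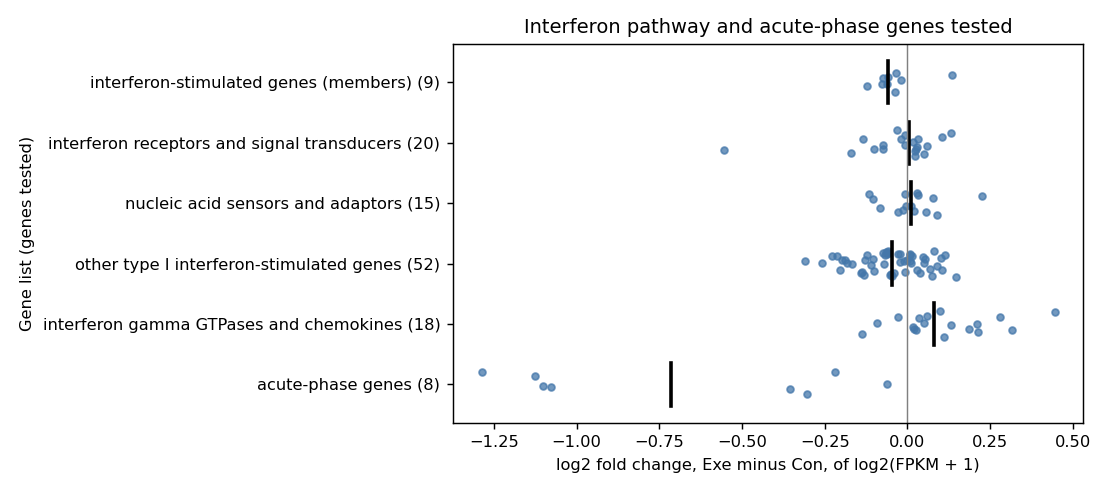
Log2 fold change, Exe minus Con, on the log2(FPKM + 1) scale (horizontal axis) of each gene tested in the interferon lists and the acute-phase list, with 1 point per gene and a black bar at the median. Vertical scatter within a list has no meaning. The medians of the interferon lists lie between -0.06 and 0.08, and that of the acute-phase genes at -0.72.

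Although no member was called between the groups, most pairs of the members other than Gbp2 varied together from mouse to mouse. The SD within groups, on the log2 scale, was 0.20 to 0.39 for the members against a median of 0.14 over all genes tested, and all 9 were above that median. Exe 5 was among the 3 highest mice for 8 of the 9 members, and Con 1 and Con 4 for 6 each. Con 5 was among the 3 lowest for 7 and Exe 2 for 6. High and low mice thus occurred in both groups.

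**Figure D4:**
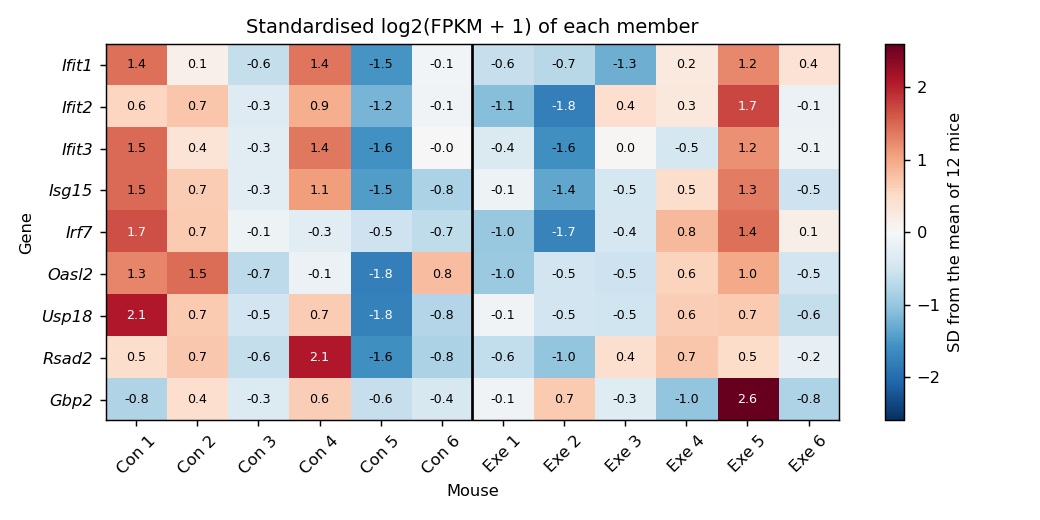
Log2(FPKM + 1) of each member (rows) in each mouse (columns), in SD from that gene's mean over the 12 mice, red for higher and blue for lower. The black line parts Con from Exe. Averaged over the 9 members, Con 1, Con 4 and Exe 5 stand highest and Con 5 and Exe 2 lowest. Con 2 and Exe 5 are above the mean in every row, while Gbp2 has its high value in Exe 5 alone.

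Of the 36 pairs of members, all had a positive Pearson r over the 12 mice, and 26 passed an adjusted p of 0.05 (100000 permutations each, Benjamini-Hochberg over the 36 pairs). By Spearman's rho 25 pairs passed, of which 24 were among the 26. Deviations from the group means, permuted within groups, gave 24 pairs, all of them among the 26. With the 2 mice farthest from the median of the first gene left out, 11 pairs passed the adjusted p and 19 an unadjusted p under 0.05. Without Exe 5, the number passing was 17, and without Con 5 it was 19. No share of such pairs among all genes tested is given here, so the count of 26 stands without a background. All values of a mouse come from the same library, and what part composition plays in the correlations was not tested.

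The strongest pair was Isg15 with Usp18, the modifier and its protease (r = 0.91, permutation p = 4e-05, adjusted p = 0.00072, rho = 0.92, permutation p = 3e-05, adjusted p = 0.00108). Without Con 1 and Exe 5 its r stayed at 0.91. Ifit3 with Isg15 had an r of 0.90 and a rho of 0.76, and Ifit2 with Ifit3 an r of 0.87 and a rho of 0.88. Among the 28 pairs without Gbp2, r was 0.51 to 0.91 with a median of 0.74, and the median r was 0.85 within the Con mice and 0.77 within the Exe mice. The pairs among these that missed the adjusted p were Oasl2 with Rsad2 (r = 0.52, permutation adjusted p = 0.107) and Irf7 with Rsad2 (r = 0.51, permutation adjusted p = 0.115).

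Gbp2 followed the other members less closely in these values, a split made after they were seen. Its 8 pairs had r between 0.12 and 0.41, rho between -0.26 and 0.30, and adjusted permutation p of 0.239 to 0.71, so 0 of 8 passed. These r depended on single mice. With the 2 mice farthest from the median of the first gene left out, r ran from -0.43 (Irf7) to 0.73 (Ifit3). Again 0 of 8 passed the adjusted p, as on deviations from the group means. Whether these r differ from those of the other pairs was not tested. Con 1, the highest mouse for 5 members, had 1.28 FPKM of Gbp2, the lowest of the 6 Con mice.

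**Figure D5:**
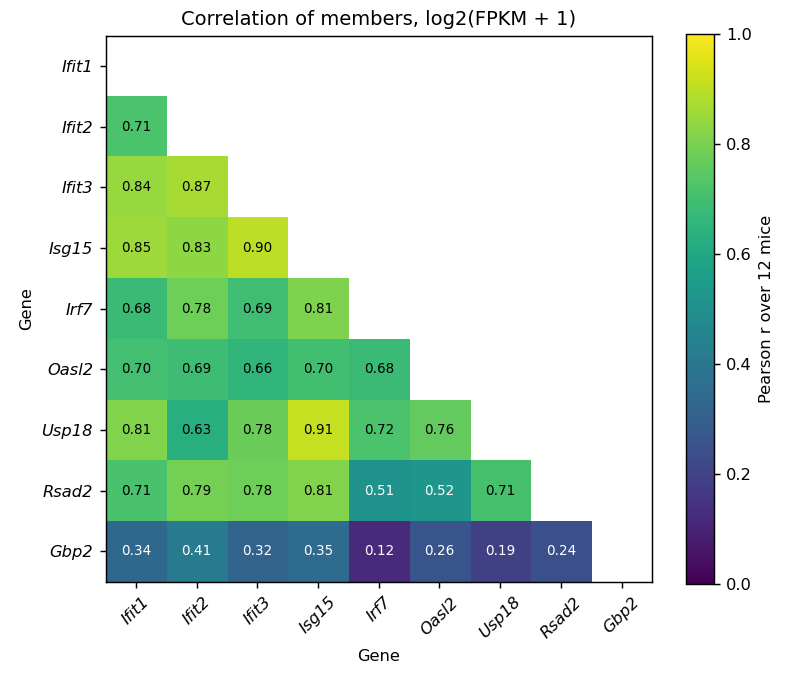
Pearson r of log2(FPKM + 1) over the 12 mice for each pair of members (colour scale from 0 to 1, with r printed in each cell). The cells among the first 8 genes hold 0.51 to 0.91 and the bottom row, Gbp2, 0.12 to 0.41.

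The genes whose pattern was most like that of the members, measured as Pearson r over the 12 mice with the mean of the 9 standardised members, were Cyba (r = 0.93), Ifi30 (0.92), Gipc1 (0.91), Pdgfrb (0.90) and Hgf (0.90). Pdgfrb also belongs to the stellate cell markers. Without Exe 5 their r were 0.92, 0.89, 0.89, 0.87 and 0.90, and without Con 1 they were 0.94, 0.91, 0.89, 0.89 and 0.89. An r over 0.7 was found for 16 of the 52 other type I interferon-stimulated genes and for 3.01% of all 10232 other genes tested. It was also found for 3 of 20 receptors and transducers, 3 of 15 sensors, 4 of 18 genes of the interferon gamma list and 0 of 8 acute-phase genes. Without Exe 5 the count was 15 for the other type I genes and 2 for the interferon gamma list. Without Con 1 it was 11 for the former and 9 for the latter, so that the list with the larger share of such genes depended on that mouse.

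Genes most like Gbp2, a description added after the data were seen, were Gm4841 (r = 0.92), Chmp2b (0.89), Thumpd3 (0.89), Igtp (0.89) and the chemokine Cxcl9 (0.89). Without Exe 5 their r were 0.80, 0.81, 0.86, 0.58 and 0.57. Of the interferon gamma list 14 of 18 genes had an r over 0.7 with Gbp2, against 1.52% of all genes. This rested on Exe 5: without it 0 of 18 did, and the median r over the list fell from 0.77 to 0.48. Gm4841 stood at 4.98 FPKM in Exe 5 against 0.86 to 1.48 FPKM elsewhere, and Cxcl9 at 8.63 against 1.87 to 3.76 FPKM.

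Marker genes of liver cell types were summed per mouse and set beside the members. The 10 Kupffer cell markers, all above 1 FPKM on average, summed to 303 to 558 FPKM in Con and to 220 to 501 FPKM in Exe (exact permutation p = 0.338). The highest sums were in Con 2, Exe 5 and Con 1 and the lowest in Exe 2. Of 108 pairs of a member and a summed list, 1 passed an adjusted p of 0.05, Ifit2 with the Kupffer cell markers (r = 0.86, permutation adjusted p = 0.0389, rho = 0.90, permutation adjusted p = 0.0194). Its r without Con 2 and Exe 5 was also 0.86, and within groups the permutation adjusted p was 0.0842. The Kupffer cell sum had a median r of 0.63 with the 9 members, the 6 stellate cell and fibroblast markers 0.62, and the 8 hepatocyte markers -0.13. Without the 2 mice farthest from the median of each sum these were 0.63, 0.49 and -0.49. For sinusoidal endothelium the median r was -0.40, and 0.039 without such mice, and for neutrophils it was 0.37 both ways. The remaining cell type lists had a median r of 0.0093 (B and plasma cells) to 0.26 (monocytes and dendritic cells). Without such mice their median r ran from -0.52 (B and plasma cells) to 0.40 (cholangiocytes), and was 0.045 for monocytes and dendritic cells. Dcn made up 83.1% of the stellate cell sum and Alb 56.2% of the hepatocyte sum, while the most abundant Kupffer cell marker, Cd5l, made up 20.3% of its list. These pairs were added after the data were seen, and the part of cell composition in the members' levels was not tested.

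Several other lists had their highest sum in Exe 5. The 10 T and NK cell markers, of which 2 averaged at least 1 FPKM, summed to 5.0 to 11.1 FPKM in Con and 6.09 to 18.3 FPKM in Exe, with the highest sum in Exe 5. Ccl5 made up 45.1% of that list, and 4 of its 10 genes were at 0 in some mouse. Gbp2 had an r of 0.84 with this sum (permutation adjusted p = 0.081), and 0.61 without Con 1 and Exe 5. It had the same r of 0.84 with the 7 monocyte and dendritic cell markers (permutation adjusted p = 0.0829, rho = 0.84, permutation adjusted p = 0.0529), and 0.77 without Exe 3 and Exe 5. With the 5 plasmacytoid dendritic cell markers its r was 0.80 (permutation adjusted p = 0.0829), and 0.40 without Exe 2 and Exe 5. The plasmacytoid dendritic cell markers were near 0, with sums of 0.24 to 0.63 FPKM in Con and 0.31 to 0.99 FPKM in Exe, and the monocyte and dendritic cell markers summed to 2.10 to 2.73 and 2.10 to 4.70 FPKM. Acute-phase genes summed to 3652 to 33643 FPKM in Con and 3837 to 32781 FPKM in Exe, highest in Con 1 and Exe 5, and their median r with the members was 0.50, and 0.068 without Con 1 and Exe 5. Con 4, high for 6 members, had the lowest acute-phase sum of all. Between the groups, the B and plasma cell sum (3.19 to 5.83 against 5.34 to 8.61 FPKM) and the hepatocyte sum had unadjusted exact permutation p of 0.0195 and 0.0325, and adjusted over the 12 lists 0.195 each.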

How the data were processed

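RNA libraries of 12 livers, 6 Con and 6 Exe, were sequenced on DNBseq with paired ends. The authors aligned reads with HISAT to GRCm39, and the submitters' processing notes also name Bowtie2 and mm10. They deposited FPKM, and the tool and annotation release behind the values are not given in the sources used here. Per its methods the study excluded outliers by PCA. FPKM are not counts, so limma was used in place of the count-based test of the authors. Of the 16821 gene IDs, 16710 matched the RefSeq table of GRCm38.p6, used for names, chromosomes and promoter sequences. Without read counts, neither the depth in reads nor a counting error can be given.

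Values were analysed as log2(FPKM + 1), a pseudocount of 1. Genes with at least 1 FPKM in at least 6 of 12 mice were fitted in R 4.3.3 with limma 3.58.1 (lmFit, then eBayes with a trend). The adjustment was that of Benjamini and Hochberg over all 10241 genes tested. A call needed an adjusted p of at most 0.05 and, as in the study, an absolute log2 fold change over 1. No gene passed the first, so the second changed no call. Single values were also tested by an exact two-sided permutation test over all 924 divisions of the mice, whose smallest p is 0.00216. Correlations had 100000 permutations (two-sided). They ran in scipy 1.17.1 under Python 3.11.15 (pandas 2.3.3, numpy 2.4.6), and plots were drawn in matplotlib 3.10.9. The scripts were tested on simulated data. The limma p-values set the group difference against the spread between these mice. The permutation p-values compare a value with those obtained by reassigning these mice.

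The members and gene lists were chosen with earlier results of these data known. The genes named were the members, their close copies, the 2 highest and 2 lowest log2 fold changes of each pathway list, the 5 genes most like the members, at most 3 marker genes in a mouse whose members stood apart, and Saa1, Saa2 and Lcn2. Stat2, Irf9, Ccl5 and the genes most like Gbp2 were added after their values were seen. The alternatives were a pseudocount of 0.1, no filter, a stricter filter, quantile normalization, sums rescaled, robust moderation, the replicate number as a block and each mouse left out in turn. Protein and metabolite data were not analysed here.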

Additional observations from a re-analysis of the deposited data

Results flagged for a closer look

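In 112 sets of 6 mice (members, marker list sums and the genes named), the highest or lowest mouse stood apart by Dixon's ratio at its 95% critical value in 19. Chance flags about 1 in 20 groups of independent values. However, 70 of the sets are genes named in part for extreme fold changes or for likeness to Gbp2, whose highest mouse is Exe 5. Many are also related genes in the same mouse. The number of sets that stood apart is therefore not to be read against chance. Among the 18 sets of the members there was 1, Gbp2 in Exe 5 at 4.51 FPKM.

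Most of the others were also in Exe 5. Of interferon genes in that mouse these were Cxcl9 at 8.63 FPKM, Gm4841 at 4.98 FPKM, Igtp at 35.8 FPKM, Ikbke at 15.8 FPKM and Tgtp1 at 17.7 FPKM. Of acute-phase genes in Exe 5 these were Hp at 7922 FPKM, Lcn2 at 609 FPKM, Saa1 at 8994 FPKM and Saa2 at 10832 FPKM, and the acute-phase sum of 32781 FPKM. The B and plasma cell sum of Exe 5 was 8.61 FPKM.

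In Con 1 the neutrophil sum of 34.6 FPKM, Lcn2 at 719 FPKM and Socs3 at 13.3 FPKM stood apart. In the remaining Con mice these were the stellate cell and fibroblast sum of Con 5 at its low end (47.6 FPKM), the cholangiocyte sum of Con 6 (28.7 FPKM), Cxcl9 in Con 4 (3.76 FPKM) and Irf9 in Con 2 (17.6 FPKM). What sets these mice apart was not tested.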

How the results depend on the processing

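Of 389 alternative values, 344 had the same sign and the same call, or a count within 1.5 times. No alternative gave a call for any gene, and the adjusted p of the members in limma was at least 0.732 throughout. The signs of the members' fold changes are not stable, with 16 of 169 turning. Leaving out each mouse in turn, the log2 fold change was -0.14 to 0.0068 for Ifit1, -0.11 to 0.027 for Ifit2, -0.22 to -0.05 for Ifit3, -0.18 to 0.015 for Isg15, -0.14 to 0.021 for Irf7, -0.17 to -0.012 for Oasl2, -0.13 to 0.070 for Usp18, -0.11 to 0.087 for Rsad2 and -0.049 to 0.22 for Gbp2. The median was -0.13 to 0.0069 for the members, -0.030 to 0.029 for receptors and transducers, -0.025 to 0.036 for sensors, -0.083 to -0.0080 for the other type I genes, -0.064 to 0.13 for the interferon gamma list and -1.30 to -0.30 for the acute-phase genes. Gbp2 and the interferon gamma list turned only without Exe 5. All genes at an unadjusted p under 0.05 numbered 418 (without Exe 2) to 910 (without Exe 5), member pairs that passed 17 to 26, and pairs with a marker list 0 to 2. That last count was 0 on deviations from the group means.

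The receptor median was -0.00060 with no filter and -0.0024 with quantile normalization, and Rsad2 was 0.0042 with the sums rescaled. Ifit2 and Rsad2 did not reach the stricter filter. No setting moved the median of all genes by more than 0.033. The replicate numbers did not pair the mice (r of deviations -0.478 to 0.165, and 1 of 6 Con mice correlated best with its own number), and with the replicate block 0 genes were called, with 567 at an unadjusted p under 0.05 against 636 without it. The cause of these changes was not tested. How far depth limits the members near 1 FPKM cannot be given, since the number of reads is unknown.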
